A study of Mus musculus with 4 samples.

Results

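The genes of the cytosolic ribosomal proteins were taken by symbol: every row named Rpl or Rps followed by a digit, plus Rpsa, Rplp0, Rplp1 and Rplp2, without the Rps6k kinases. The rule took 105 of the 22328 genes listed, and no measured value entered it. Of these, 76 were the canonical genes of ribosomal subunit proteins, 45 of the large and 31 of the small subunit. A further 7 were paralogs of a canonical gene, 19 carried a pseudogene symbol ending in -ps and a number, and 2, Rps19bp1 and Rpl7l1, are named after a subunit protein but are not counted as subunits here. The last row was named Rpl24, but its identifier and coordinates (ENSMUSG00000022601, mm10 chr16:55973883-56008913) belong to Zbtb11 in the GENCODE M21 annotation, so its values are not those of a ribosomal protein. The row with the identifier of Rpl24 was written RPL24 and so lay outside the rule, with 16 reads in F1m-GCS, 13 in F1m-CON, 26 in HT22 SUP and 28 in HT22 CON.

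The study concerns choline given to dams or to cultured cells, and holds 4 poly(A)-selected mouse RNA-seq libraries, 1 in each group. F1m-GCS is hippocampus of offspring whose dams had a diet with 5 g/kg choline chloride that began on embryonic day 9 and ended at birth, and F1m-CON is hippocampus of offspring whose dams ate 1.1 g/kg; both kinds of offspring had a basal diet after birth and were tested for behaviour at 2 months. HT22 SUP and HT22 CON are cultures of HT22, an immortalised mouse hippocampal cell line, kept in 70 µM and 5 µM choline chloride for 48 h. The strain, and whether a hippocampus library is 1 animal or a pool, are not stated in the labels. With 1 library in each group no difference below has a replicate check, no p-value is given, and each 95% interval covers counting error only. Reads in genes numbered 30265820 in F1m-GCS, 31175015 in F1m-CON, 13192007 in HT22 SUP and 18305096 in HT22 CON. The 7 neuron markers summed to 8858 counts per 1e6 reads in F1m-GCS and 9071 in F1m-CON. They summed to 154 in HT22 SUP and 61.7 in HT22 CON, so HT22 cells held little of the RNA that marks mature neurons.

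A ribosome is built from a single copy of almost every ribosomal protein, so cells must make these proteins in matched amounts. Their mRNAs share a run of pyrimidines at the 5′ end, the TOP motif, through which mTOR signalling sets how strongly all of them are translated. The genes are highly expressed, short, and have left many processed pseudogenes across mammalian genomes, copies of the spliced mRNA that were inserted elsewhere. A few members also have a working second gene, such as Rpl3l in muscle or Rpl10l in testis, whose protein can take the place of the usual one.

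Near-identical copies touched nearly every member. At a threshold of at least 95% identity over at least 80% of the coding sequence, 71 of the 76 canonical genes, and 91 of all 105 members, had a copy under another gene name among the GENCODE M21 transcripts. The median canonical gene had 5.5 such copies, and Rpl21, a large subunit protein gene, had the most at 57. The 5 canonical genes without one by this rule included Rpl41, Rpl8, Rps19 and Rps3. The coding sequences were also cut into all windows of 50 bases, and each window was looked up letter for letter in the transcripts of other genes. All windows were found elsewhere for 27 canonical genes. Fewer than 50% were found elsewhere for only 11, among them Rpl41, Rps3, Rpl8, Rpl4, Rpl22, Rpl32, Rps15, Rps9 and Rps21. Rps19, without a copy by the identity rule, had 53% of its windows found elsewhere. The Rps19 sequence searched had 639 bases, and the rule misses any copy that covers less than 80% of it. A read that lies wholly in shared sequence cannot be assigned to 1 gene. The labels do not give the read length, and a longer read or its mate can reach past a shared window, so the windows do not say which reads were affected. Counts of the remaining 65 genes are uncertain as levels. Only annotated transcripts were searched, so copies outside the annotation were not counted.

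Levels differed widely between the canonical genes. Level here is reads per kb of coding length per 1e6 reads in genes. The canonical genes had a median level of 23.8 in F1m-GCS, 25.3 in F1m-CON, 128 in HT22 SUP and 126 in HT22 CON. The highest level on average was that of Rpl41, which encodes the smallest large subunit protein, at 921 in F1m-GCS, 945 in F1m-CON, 5473 in HT22 SUP and 4671 in HT22 CON. Its rank depends on length, since its coding sequence is the shortest of the canonical genes, at 141 bp. In counts per 1e6 reads Rpl41 had 130 in F1m-GCS and 659 in HT22 CON, below Rpl4 (240 and 1416) and Rpl8 (232 and 1911). Rpl8 and Rpl32, also among the genes with few shared windows, and Rplp1, a protein of the ribosomal stalk, were among the next in level. The lowest on average was Rpl23a, a large subunit protein near the exit tunnel, at a level of 2.10 in F1m-GCS, 3.20 in F1m-CON, 2.25 in HT22 SUP and 4.29 in HT22 CON. Rps13, Rpl17, Rpl35 and Rps27 followed, each with at least 90% of its windows shared. The SD of the log2 level among the 76 genes was 2.05 in F1m-GCS, 1.98 in F1m-CON, 2.25 in HT22 SUP and 2.22 in HT22 CON.

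The 11 genes with few shared windows stood closer together and higher. Their log2 levels had an SD of 0.89 in F1m-GCS, 0.79 in F1m-CON, 0.89 in HT22 SUP and 0.85 in HT22 CON. Their median level was 264 in F1m-GCS, 303 in F1m-CON, 1719 in HT22 SUP and 1396 in HT22 CON. The 65 genes with more shared windows had median levels of 17.9 in F1m-GCS, 18.8 in F1m-CON, 110 in HT22 SUP and 112 in HT22 CON. Across the 76 genes, the level and the share of shared windows had a Spearman rho of -0.68 in F1m-GCS, -0.67 in F1m-CON, -0.64 in HT22 SUP and -0.62 in HT22 CON. The genes of 1 library are not independent replicates, and these values are descriptions. The order of the genes itself was nearly the same within each system, with a rho of 0.98 between F1m-GCS and F1m-CON and 0.99 between HT22 SUP and HT22 CON.

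**Figure D1:**
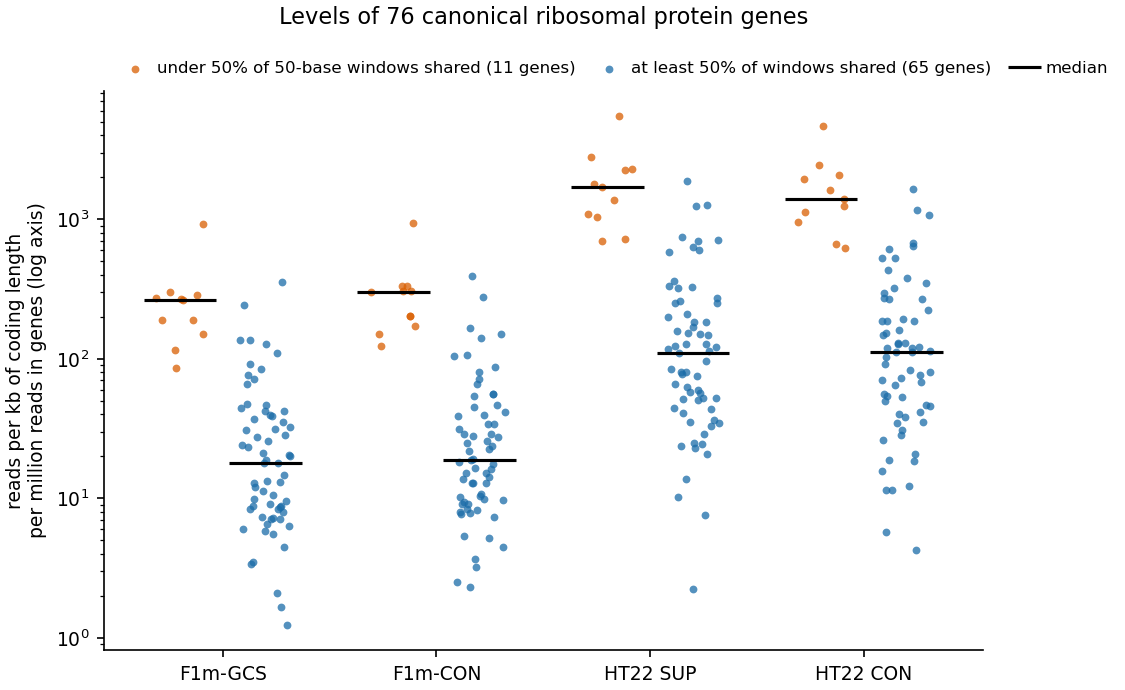
Level of each canonical ribosomal protein gene (reads per kb of coding length per 1e6 reads in genes, log axis) in the 4 libraries, 1 point a gene, with medians as black lines. The 11 genes with fewer than 50% of their 50-base windows found in other transcripts lie above most of the other 65 in all 4 libraries, with medians of 264 against 17.9 in F1m-GCS.

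Among the paralogs, Rpl39l was read almost only in the cell line. Rpl39l encodes a close relative of Rpl39, a small protein that lines the exit tunnel of the large subunit, and is known from testis and some cultured cells. Their coding sequences are both 156 bases long and differ at 23 bases, printed in capitals below, and the longest stretch they share is 38 bases. They are shown because this is the pair whose makeup differed most between cells and tissue, and because Rpl39l had no near-identical copy and no shared window. Both were read from the GENCODE M21 transcripts; Rpl39 lies at mm10 chrX:37082520-37085402 on the minus strand and Rpl39l on chromosome 16.
Rpl39: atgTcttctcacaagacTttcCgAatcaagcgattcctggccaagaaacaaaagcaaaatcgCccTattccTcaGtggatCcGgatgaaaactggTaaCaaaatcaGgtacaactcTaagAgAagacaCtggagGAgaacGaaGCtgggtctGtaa
Rpl39l: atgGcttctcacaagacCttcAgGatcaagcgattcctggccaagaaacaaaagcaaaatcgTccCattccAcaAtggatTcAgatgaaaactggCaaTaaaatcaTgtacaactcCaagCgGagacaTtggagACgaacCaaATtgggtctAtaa

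Rpl39l had 2543 reads in HT22 SUP and 3515 in HT22 CON, against 1 read in F1m-GCS and 1 in F1m-CON. Rpl39 itself had 1193 reads in HT22 SUP and 1244 in HT22 CON, against 188 in F1m-GCS and 166 in F1m-CON. Rpl39l thus made up 68.1% (95% Clopper-Pearson interval 66.6 to 69.6) of the pair's reads per kb in HT22 SUP and 73.9% (72.6 to 75.1) in HT22 CON. Its share was 0.529% (0.0134 to 2.91) in F1m-GCS and 0.599% (0.0152 to 3.29) in F1m-CON. The intervals of cells and tissue did not overlap. Rpl39 has 9 near-identical copies and Rpl39l none, so the size of the share is uncertain.

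Rps4y2 had the opposite distribution. In GENCODE M21 this row, on chromosome 6, is Rps4l, typed as a transcribed processed pseudogene of the small subunit gene Rps4x, to which its coding sequence is 79.8% identical. It had 3 reads in HT22 SUP and 1 in HT22 CON, against 946 in F1m-GCS and 875 in F1m-CON. It made up 48.5% (46.3 to 50.8) of the pair's reads per kb in F1m-GCS and 38.9% (36.9 to 41.0) in F1m-CON. The 2 intervals did not overlap, but they cover counting error only. Such separation was common between these 2 libraries. For the count ratio of F1m-GCS over F1m-CON, 18.8% of all measured genes had an interval wholly below 1, and 20.9% wholly above 1. Rps4x, with 7 near-identical copies, had 1008 reads in F1m-GCS against 1379 in F1m-CON.

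The other paralogs differed less between cells and tissue than Rpl39l did. Rps27l, a p53 target gene beside Rps27, took 88.3% of its pair's reads per kb in F1m-GCS, 85.8% in F1m-CON, 94.7% in HT22 SUP and 95.7% in HT22 CON, and the counting intervals of the HT22 libraries, from 93.5% up, lay above those of the hippocampus libraries, which reached 92.2%. Rps27 has 4 near-identical copies and all its windows are shared, so its count of 26 to 86 reads, and the share, are uncertain. Rpl36al took 76.7% beside Rpl36a in F1m-GCS, 76.0% in F1m-CON, 81.4% in HT22 SUP and 79.8% in HT22 CON. All windows of both genes are shared, so this share is uncertain too. Rpl22l1, the paralog of the RNA-binding protein gene Rpl22, took 4.74% in F1m-GCS and 5.46% in F1m-CON, and 7.20% in HT22 SUP and 8.20% in HT22 CON. Here too the intervals of the HT22 libraries, from 6.53% up, lay above those of the hippocampus libraries, which reached 6.23%. Rpl22l1 has 2 near-identical copies and 81.9% of its windows shared, which leaves its share uncertain as well. Rpl3l, the striated muscle form of Rpl3, had 15 reads in F1m-GCS, 10 in F1m-CON, 8 in HT22 SUP and 4 in HT22 CON. Rpl10l, the testis form of Rpl10, was at 0 reads in all 4 libraries, which allows a share of up to 2.33% in F1m-GCS, 1.63% in F1m-CON, 0.674% in HT22 SUP and 0.361% in HT22 CON (3 counts of the pair's total). The upper ends of the two-sided exact 95% intervals are wider, at 2.82% in F1m-GCS, 1.99% in F1m-CON, 0.826% in HT22 SUP and 0.442% in HT22 CON.

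**Figure D2:**
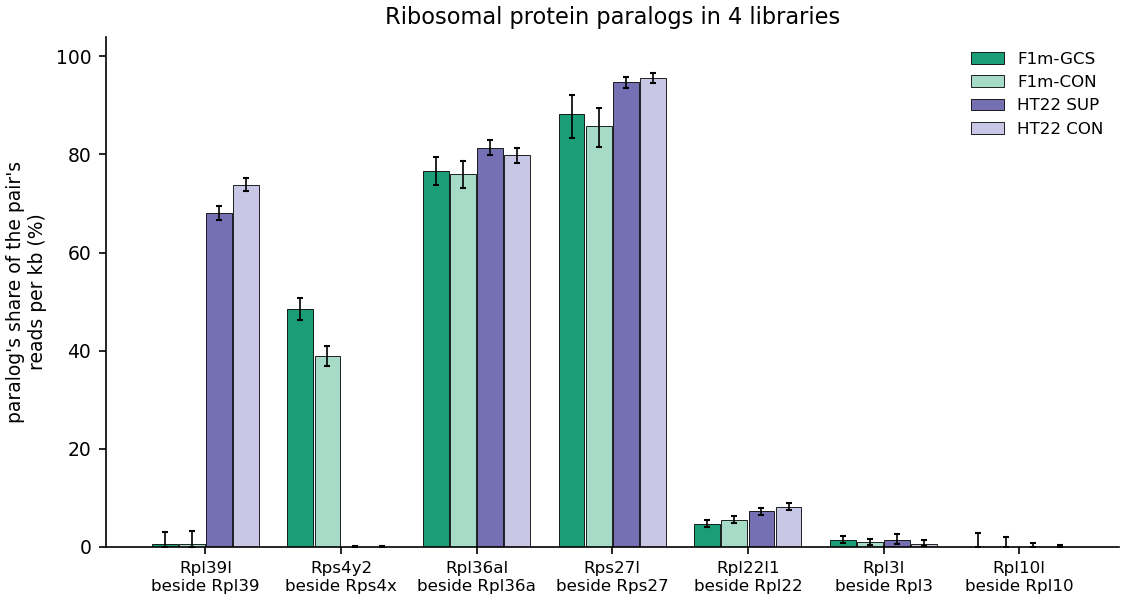
Share (%) of each paralog in the reads per kb of the paralog and the gene it is set beside, in the 4 libraries, with 95% Clopper-Pearson intervals that cover counting error only. Rpl39l is at 68.1% and 73.9% in HT22 SUP and HT22 CON and under 1% in both hippocampus libraries, and Rps4y2 is at 48.5% and 38.9% in F1m-GCS and F1m-CON and near 0 in HT22 cells.

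Rows with pseudogene symbols took 6.80% of all members' reads in F1m-GCS, 7.26% in F1m-CON, 8.46% in HT22 SUP and 7.92% in HT22 CON. The files type all 19 as protein coding, while GENCODE M21 types 14 of them as pseudogenes. Several had more reads than the gene they are named after. Rpl23a-ps3, whose coding sequence is 99.8% identical to that of Rpl23a, had 1011 reads in F1m-GCS, 1119 in F1m-CON, 3639 in HT22 SUP and 4419 in HT22 CON, while Rpl23a had 30 in F1m-GCS, 47 in F1m-CON, 14 in HT22 SUP and 37 in HT22 CON. Rps26-ps1, 99.4% identical to Rps26, had 2036 reads in F1m-GCS, 2416 in F1m-CON, 9315 in HT22 SUP and 10393 in HT22 CON, while Rps26 had 754 in F1m-GCS, 779 in F1m-CON, 726 in HT22 SUP and 723 in HT22 CON. Rpl9-ps6, Rps10-ps1 and Rps12-ps3 likewise exceeded Rpl9, Rps10 and Rps12 in all 4 libraries. Rps12-ps3 has the same coding sequence as Rps12, letter for letter, so coding reads cannot tell the loci apart. Rpl13a-ps1, 95.3% identical to Rpl13a and with 14.2% of its windows shared, took 48.8% of that pair's reads per kb in F1m-GCS, 50.9% in F1m-CON, 52.2% in HT22 SUP and 48.7% in HT22 CON. These shares rest on a listed coding length of 1272 bp for Rpl13a and 612 bp for Rpl13a-ps1. The coding sequence of Rpl13a searched for copies also had 612 bases. By reads alone the share of Rpl13a-ps1 was 31.43% in F1m-GCS, 33.3% in F1m-CON, 34.45% in HT22 SUP and 31.31% in HT22 CON. Rpl10-ps3, Rpl13-ps3, Rpl36-ps3, Rpl7a-ps5, Rps18-ps3 and Rps2-ps6 had between 6 and 252 reads in every library, and Rpl7a-ps3 had 64 and 66 in HT22 SUP and HT22 CON against 0 and 2 in F1m-GCS and F1m-CON. Rpl21-ps4, Rpl27-ps3, Rpl28-ps4, Rpl36-ps4, Rpl7a-ps8 and Rpl9-ps1 had at most 3 reads in any library.

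In hippocampus, ribosomal protein genes lay slightly lower in F1m-GCS than in F1m-CON. All members together had 92875 reads in F1m-GCS, 0.307% of the reads in genes, and 106280 in F1m-CON, 0.341%. The ratios below compare counts scaled by library size, on a log2 scale with a prior count of 2. The pooled log2 ratio was -0.14 (-0.15 to -0.13). To be measured, a gene needed 50 reads in either library, which 86 members reached; the other 19 fell short in both. The median log2 ratio of these 86 was -0.15, beside 0.00 for all 13392 measured genes. Their ratio was below 0 for 68 of 86, where 51.2% of all measured genes were below 0. The interval lay wholly below 0 for 41 members, where 18.8% of all measured genes had such an interval, and wholly above 0 for 4, where 20.9% had. Large and small subunits did not stand apart, with medians of -0.14 and -0.13 for 43 and 28 canonical genes. In bulk tissue, fewer cells of a type and less RNA per cell cannot be told apart.

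The same direction held in the 11 genes with few shared windows, whose counts are the least exposed to copies. All 11 had a ratio below 0, with a median of -0.18, and 10 of the 11 intervals lay below 0, beside 18.8% for all measured genes. The 2 shares are not at like depth, because intervals narrow as reads rise. Measured genes start at 50 reads, while Rpl4, 1 of the 11, had 7251 in F1m-GCS. Rps21, a small subunit protein gene, had 886 reads in F1m-GCS and 1177 in F1m-CON (log2 -0.35, -0.48 to -0.23). Rps3, a small subunit protein gene with no near-identical copy, had 5841 reads in F1m-GCS and 6966 in F1m-CON (log2 -0.20, -0.25 to -0.15). Rpl41 was nearest to 0, with 3931 reads in F1m-GCS and 4153 in F1m-CON (log2 -0.03, -0.09 to 0.04).

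Gene length moved with the ratio across the whole library pair. The tenth of measured genes with the shortest coding sequences had a median log2 ratio of -0.09, and the tenth with the longest 0.11. The median canonical coding length was 465 bp, beside 1137 bp for all genes. After subtraction of the median of genes alike in length and GC content, the members' median was -0.07, with 56 of 86 below 0, and that of the 11 genes -0.07, with 9 below 0. The 4 choroid plexus markers also differed, summing to 1500 counts per 1e6 reads in F1m-GCS and 1738 in F1m-CON with none at 0 reads. Their part in the result was not tested.

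Few members moved far. A call, higher or lower, required a ratio of at least 1.5-fold and an interval on 1 side of 0. No member was called higher, where 1.8% of all measured genes were, and 4 of 86 were called lower, where 0.904% were. All 4 have at least 78% of their windows shared. Rpl19, a large subunit protein gene (ENSMUSG00000017404, mm10 chr11:98026710-98030492), had 105 reads in F1m-GCS and 353 in F1m-CON, 3.20-fold lower (log2 -1.68, -2.02 to -1.38). All windows of Rpl19 are shared, and it has 6 near-identical copies. Rpl7a-ps5 had 52 reads in F1m-GCS and 98 in F1m-CON (log2 -0.84, -1.37 to -0.36). Rps12-ps3 had 166 reads in F1m-GCS and 284 in F1m-CON (log2 -0.71, -1.01 to -0.44). Rpl9, a large subunit protein gene, had 147 reads in F1m-GCS and 234 in F1m-CON (log2 -0.61, -0.92 to -0.31). Its call was lost with the correction for length and GC, at -0.52, and with a prior count of 10, at -0.58, which left 3 members called lower.

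Below the 1.5-fold threshold, Rps24 was the member farthest above 0. This small subunit protein gene, mutated in some patients with Diamond-Blackfan anaemia, had 1346 reads in F1m-GCS and 1001 in F1m-CON (log2 0.48, 0.36 to 0.60). Corrected for length and GC, it stood at 0.60 (0.48 to 0.72), which would make it the only member called higher. Rps24 has 7 near-identical copies and 77.6% of its windows shared, so its counts are uncertain. Rps18-ps3 (log2 -0.52), Rps27a, made as a fusion with ubiquitin (-0.47), Rpl10 (-0.45) and Rps19, the gene most often mutated in Diamond-Blackfan anaemia (-0.40), had intervals below 0. All windows of Rps27a and Rpl10 are shared, as are 81.1% of those of Rps18-ps3 and 53% of those of Rps19. Rpsa, the laminin receptor of the small subunit, had 1203 reads in F1m-GCS and 1252 in F1m-CON (log2 0.00). The stalk genes Rplp0, Rplp1 and Rplp2 stood at 0.01, -0.14 and 0.00. Rps6, the small subunit target of S6 kinase, had 216 reads in F1m-GCS and 251 in F1m-CON (log2 -0.16), and Rpl3, a protein near the catalytic centre, had 1136 in F1m-GCS and 1085 in F1m-CON (log2 0.12). Rpl22 had 3139 reads in F1m-GCS and 3725 in F1m-CON (log2 -0.19), and its paralog Rpl22l1 149 in F1m-GCS and 205 in F1m-CON (log2 -0.40).

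In HT22 cells the members lay on the other side of 0. All members together had 274972 reads in HT22 SUP, 2.08% of the reads in genes, and 346366 in HT22 CON, 1.89%. The pooled log2 ratio was 0.15 (0.14 to 0.16). The median over 93 measured members was 0.13, beside -0.05 for all 10854 measured genes. The ratio was below 0 for 25 of 93 members, where 58.1% of all measured genes were below 0. The interval lay wholly above 0 for 47 members, where 22.4% of all measured genes had such an interval, and wholly below 0 for 9, where 32.7% had. Medians were 0.12 for 44 canonical large subunit genes and 0.14 for 30 small subunit genes. The same correction gave the 93 a median of 0.17. The neuron markers summed to 154 counts per 1e6 reads in HT22 SUP and 61.7 in HT22 CON, and the 2 markers of dividing cells to 3010 in HT22 SUP and 2271 in HT22 CON. The 3 astrocyte markers summed to 121 in HT22 SUP and 50.4 in HT22 CON, and the 4 choroid plexus markers, 1 of them at 0 reads in each library, to 134 in HT22 SUP and 191 in HT22 CON. Reads in genes made up 63.1% of uniquely mapped reads in HT22 SUP and 72.9% in HT22 CON. The part of these differences in the result was not tested.

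Of the 11 genes with few shared windows, 10 were above 0 in HT22 SUP, with a median of 0.16. Rps15 was highest among them, with 10307 reads in HT22 SUP and 11192 in HT22 CON (log2 0.37, 0.33 to 0.40). Rpl41 had 10181 reads in HT22 SUP and 12055 in HT22 CON (log2 0.24, 0.20 to 0.28). The exception was Rpl4, with 18242 reads in HT22 SUP and 25925 in HT22 CON (log2 -0.02, -0.05 to 0.00).

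By the 1.5-fold rule, 3 members of 93 were called higher in HT22 SUP, where 5.13% of all measured genes were, and 1 lower, where 2.89% were. Each of the 4 has at least 91% of its windows shared. Rps7, a small subunit protein gene, had 224 reads in HT22 SUP and 132 in HT22 CON, 2.35-fold higher (log2 1.23, 0.93 to 1.57). Rpl10-ps3, letter for letter identical to the coding sequence of Rpl10, had 79 reads in HT22 SUP and 65 in HT22 CON (log2 0.75, 0.27 to 1.26), while Rpl10 had 445 in HT22 SUP and 832 in HT22 CON (log2 -0.42). Rpl35 had 116 reads in HT22 SUP and 107 in HT22 CON (log2 0.59, 0.21 to 0.99). Its call was lost with the correction for length and GC, at 0.50, with total counts, at 0.58, and with a prior count of 10, at 0.55, each of which left 2 members called higher. Rpl19 was the member called lower, with 489 reads in HT22 SUP and 1210 in HT22 CON, 1.77-fold lower (log2 -0.82, -0.98 to -0.67).

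Other members far from 0 in HT22 cells stayed within 1.5-fold. Rps26 stood at 0.49, Rpl14 at 0.46, Rpl7a-ps3 at 0.43 and Rpl39 at 0.42, and Rps12-ps3 at -0.45. Rpl39 had 1193 reads in HT22 SUP and 1244 in HT22 CON, while Rpl39l had 2543 in HT22 SUP and 3515 in HT22 CON (log2 0.02, -0.06 to 0.09). Rplp0, Rplp1 and Rplp2 stood at 0.24, 0.20 and 0.31, Rps6 at 0.04, Rpsa at -0.06, Rpl3 at 0.25 and Rpl22 at 0.13. Rps19bp1, which encodes a binding partner of the Rps19 protein, had 971 reads in HT22 SUP and 1032 in HT22 CON (log2 0.40, 0.27 to 0.52).

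**Figure D3:**
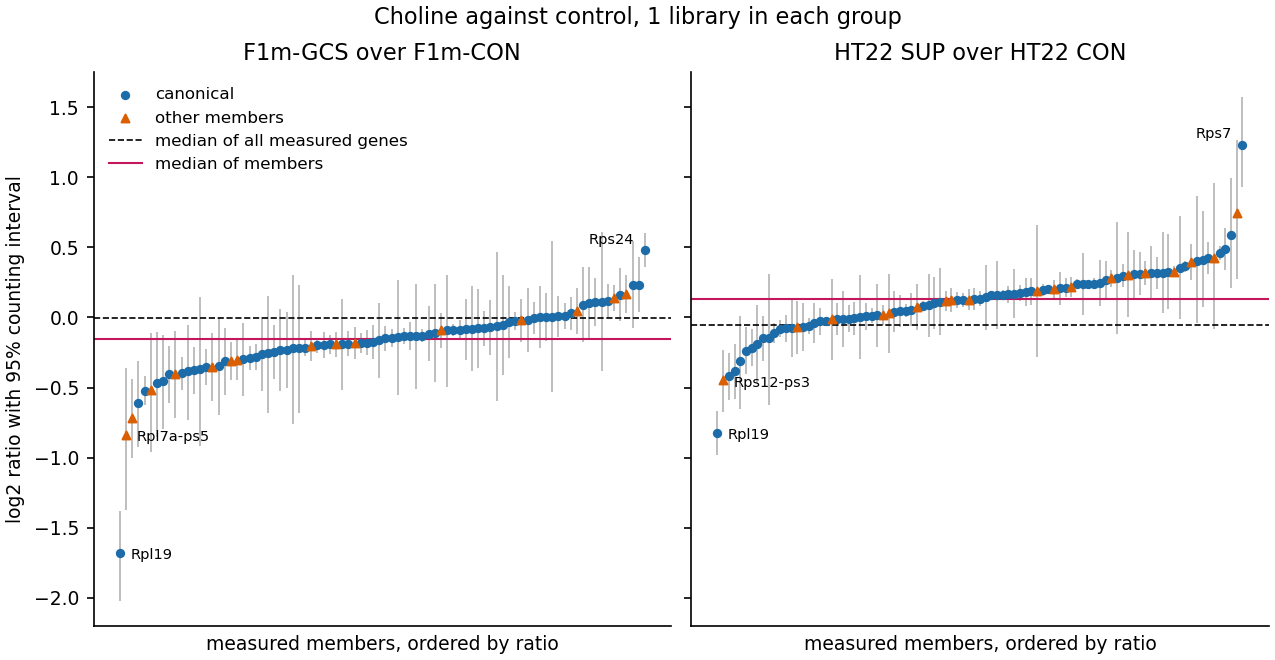
log2 ratio with its 95% counting interval for each measured member, ordered by ratio, in F1m-GCS over F1m-CON (86 members) and HT22 SUP over HT22 CON (93 members). The members' median is -0.15 beside 0.00 for all measured genes in hippocampus, and 0.13 beside -0.05 in HT22 cells, and Rpl19 is the lowest member in both panels.

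Both comparisons measured 84 members in common, and they share no library. A ratio below 0 in hippocampus and above 0 in HT22 cells was found for 48 of them, the reverse for 5, below 0 in both for 19 and above 0 in both for 12. Over all 10234 genes measured in both, 19.0% were below 0 in hippocampus and above 0 in HT22 cells, and 25.1% the reverse. Taken singly, 67 of the 84 members were below 0 in hippocampus and 60 were above 0 in HT22 cells, and the joint count adds nothing to these counts. Rpl19 was the 1 member called in both, lower in F1m-GCS and lower in HT22 SUP. Rpl9 was lower in F1m-GCS at -0.61, but stood at 0.27 in HT22 SUP with an interval above 0, from 842 reads against 979 in HT22 CON. Its near copy Rpl9-ps6, 99.8% identical, stood at -0.20 in hippocampus (1361 reads in F1m-GCS, 1626 in F1m-CON) and at 0.28 in HT22 cells (3775 in HT22 SUP, 4355 in HT22 CON).

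**Figure D4:**
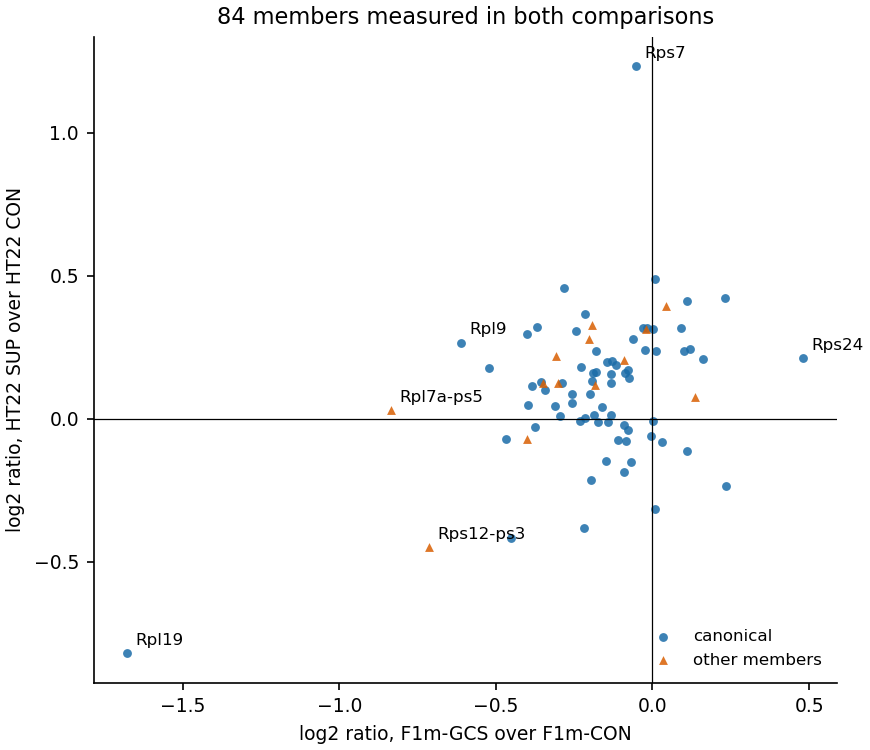
log2 ratio of F1m-GCS over F1m-CON (x axis) against that of HT22 SUP over HT22 CON (y axis) for the 84 members measured in both. The largest quadrant, with 48 members, is below 0 in hippocampus and above 0 in HT22 cells, and Rpl19 lies alone at -1.68 and -0.82.

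Other genes of protein synthesis had medians nearer to 0 in hippocampus, by less after the correction for length and GC. Mitochondrial ribosomal protein genes had a median of -0.10 over 75 measured genes with 61 below 0, and a corrected median of -0.03. Translation factors made from TOP mRNAs had a median of -0.04, and also -0.04 after correction, beside corrected medians of -0.07 for all members and -0.06 for canonical genes. Of these 21 genes 1 was called lower, where 0.904% of all measured genes were. That gene was Fau, which encodes a small subunit protein fused to a ubiquitin-like part, with 51 reads in F1m-GCS and 105 in F1m-CON (log2 -0.96, -1.50 to -0.49). All its windows are shared with another gene. Rack1, listed as Gnb2l1, a scaffold on the small subunit with no near-identical copy, had 5805 reads in F1m-GCS and 6778 in F1m-CON (log2 -0.17, -0.22 to -0.12). The medians of 31 other translation factors and 42 ribosome biogenesis genes were 0.00 and 0.01, with none called, and -0.02 and 0.00 after correction.

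In HT22 cells the same lists had medians of 0.05 for mitochondrial ribosomal proteins, 0.02 for TOP factors, 0.08 for the other factors and 0.05 for biogenesis genes, beside -0.05 for all measured genes. After the correction for length and GC these lists stood closer to the members. Their corrected medians were 0.11, 0.12, 0.12 and 0.09 in the same order, beside 0.17 for all members and 0.16 for canonical genes. Of the 21 TOP factors 1 was called higher, where 5.13% of all measured genes were. It was Naca, the alpha chain of a ribosome-bound complex, with 551 reads in HT22 SUP and 488 in HT22 CON (log2 0.66, 0.48 to 0.84). Of the 31 other factors 2 were called higher, beside the same 5.13%. Eef1a2, the elongation factor of neurons and muscle, had 208 reads in HT22 SUP and 97 in HT22 CON (log2 1.56, 1.23 to 1.95). Eif3a, the largest subunit of an initiation complex, had 19981 reads in HT22 SUP and 14869 in HT22 CON (log2 0.91, 0.88 to 0.94). Of the 42 biogenesis genes 2 were called higher, beside the same 5.13%: Mdn1, a very long gene whose product strips assembly factors from the large subunit (log2 1.25, 1.16 to 1.34), and Ncl, nucleolin (log2 0.72, 0.70 to 0.74). Mrps36 was the 1 gene called lower among the mitochondrial ribosomal proteins, with 24 reads in HT22 SUP and 57 in HT22 CON, where 2.89% of all measured genes were called lower. Rack1 stood at -0.05 (-0.07 to -0.03). The tenth of measured genes with the longest coding sequences had a median of 0.29 in this comparison.

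Between cell line and tissue the members differed most. They took 1.89% of the reads in genes in HT22 CON and 0.341% in F1m-CON. The median log2 ratio of HT22 CON over F1m-CON was 2.33 over 95 measured members, beside -0.10 for all 13924 measured genes. Below 0 were 7 of 95, where 52.0% of all measured genes were. Of the 95, 83 were at least 2-fold higher with an interval that excluded 0, where 27.6% of all measured genes were. At least 2-fold lower were 4 members, where 35.9% of all measured genes were. In HT22 SUP over F1m-GCS the median was 2.65, with 6 of 95 below 0, where 53.2% of all measured genes were. At least 2-fold higher were 87 of 95, where 27.0% of all measured genes were, and 3 lower, where 36.7% were. The 11 genes with few shared windows had a median of 2.28 in HT22 CON over F1m-CON, all of them at least 2-fold higher.

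The highest canonical ratios were those of Rplp0, Rps28, Rpl6, Rpl39 and Rps3a1. Rplp0, the base of the stalk, had 18731 reads in HT22 CON and 1970 in F1m-CON (log2 3.88, 3.81 to 3.94). Rps28, a small subunit protein gene, had 621 reads in HT22 CON and 68 in F1m-CON (log2 3.77, 3.46 to 4.20). Rpl6, Rpl39 and Rps3a1 stood at 3.54, 3.51 and 3.50. All of these genes have near-identical copies, so their ranking is uncertain. Shared windows made up 60.4% in Rplp0, 100% in Rps28, 93.2% in Rpl6, 84.1% in Rpl39 and 88.3% in Rps3a1. Among the 11 genes with few shared windows the highest ratio was 3.35. Rpl41, highest in level, stood at 2.16.

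The canonical genes at least 2-fold lower in HT22 CON were Rpl29 and Rps2. Rpl29, a large subunit protein gene, had 65 reads in HT22 SUP and 101 in HT22 CON, against 1853 in F1m-GCS and 2132 in F1m-CON, a log2 ratio of -3.75 (-4.07 to -3.48) for HT22 CON over F1m-CON. It has 25 near-identical copies and 90.3% of its windows shared. Rps2 had 275 reads in HT22 SUP and 348 in HT22 CON, against 1023 in F1m-GCS and 1120 in F1m-CON (log2 -1.06, -1.24 to -0.88), with 18 copies. Rpl15 and Rpl3 stood near 0, at -0.07 (-0.17 to 0.03) and -0.03 (-0.17 to 0.11), and Rpl23a, with 37 reads in HT22 CON and 47 in F1m-CON, was too thinly counted to measure. Among the other members Rps4y2 and Rps18-ps3 were lower. Rps4y2 gave -7.79 (-14.45 to -6.66), from 1 read in HT22 CON, and Rps18-ps3 had 19 reads in HT22 CON and 120 in F1m-CON (log2 -1.95). The Zbtb11 row named Rpl24 stood at -0.76.

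The other genes of translation were higher in HT22 cells too, by different amounts. The TOP factors had a median log2 ratio of 2.29, close to that of the ribosomal protein genes, with 20 of 21 at least 2-fold higher. Npm1, a nucleolar chaperone, stood at 3.45 and Rack1 at 3.40 (46403 reads in HT22 CON, 6778 in F1m-CON). Biogenesis genes had a median of 1.37, the other translation factors 1.16 and mitochondrial ribosomal proteins 0.80. Eef1a2 went the other way, with 97 reads in HT22 CON and 21997 in F1m-CON (log2 -7.17). The 2 markers of dividing cells summed to 2271 counts per 1e6 reads in HT22 CON and 6.13 in F1m-CON, with neither at 0 reads; their part in the result was not tested. Cell line and tissue stand in separate tables of the authors, and whatever else differs between them cannot be told apart from the kind of cell.

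**Figure D5:**
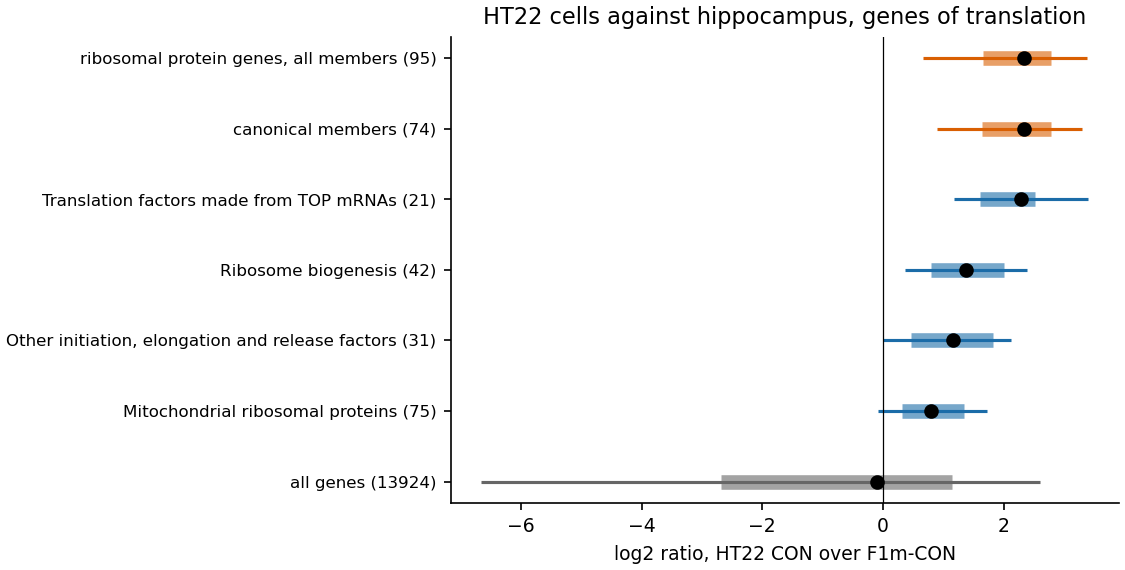
log2 ratio of HT22 CON over F1m-CON for the members and for other lists of translation genes, with the number of measured genes in brackets; points are medians, thick bars the middle 50% and thin lines the 10th to 90th percentile of genes. The members' median is 2.33 and that of TOP factors 2.29, beside 0.80 for mitochondrial ribosomal proteins and -0.10 for all measured genes.

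The start sites of the members were searched for a TOP-like run, defined as a C followed by at least 5 letters that are each C or T, on the transcript's strand, anywhere in the 30 bases from 15 before the RefSeq start to 15 from it on. RefSeq start sites (GRCm38.p6) were at hand for 56 of the 76 canonical genes. Such a run was found for 33 of the 56, or 58.9%, beside 25.5% of all 27025 genes with a start site. A run of at least 5 pyrimidines that opened with a C exactly at the annotated first base was found for 13 of the 56, or 23.2%, beside 3.01% of all genes. The windows below are those of 9 members named above, with each run in capitals and the annotated first base after the first 15 letters. They are shown because the run is the feature by which, as background, these mRNAs are regulated together. Rps7, called higher in HT22 SUP, holds no run by this definition, and neither does Rpl9, called lower in F1m-GCS, while Rpl35, Rps24, Rplp2, Rps6 and both genes of the Rpl39 pair do. Rpl19, called lower in both comparisons, has 2 annotated starts, 1 with a run and 1 without. In Rpl39l and at the Rpl19 start with a run, the run ends just before the annotated first base. By the annotation those runs lie outside the mRNA.
Rpl39 (chrX:37085208-37085237, minus): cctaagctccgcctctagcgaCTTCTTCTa
Rpl39l (chr16:10170213-10170242, plus): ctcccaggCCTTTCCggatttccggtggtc
Rpl19, start with a run (chr11:98026909-98026938, plus): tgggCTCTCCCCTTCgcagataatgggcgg
Rpl19, start without a run (chr11:98026695-98026724, plus): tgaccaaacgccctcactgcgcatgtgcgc
Rpl35 (chr2:39005117-39005146, minus): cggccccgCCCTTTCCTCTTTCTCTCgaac
Rps24 (chr14:24490663-24490692, plus): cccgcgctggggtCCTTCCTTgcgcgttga
Rplp2 (chr7:141447636-141447665, plus): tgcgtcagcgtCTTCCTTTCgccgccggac
Rps6 (chr4:86857353-86857382, minus): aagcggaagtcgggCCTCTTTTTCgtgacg
Rps7 (chr12:28635939-28635968, minus): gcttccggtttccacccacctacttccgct
Rpl9 (chr5:65391417-65391446, minus): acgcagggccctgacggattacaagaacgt
A match in letters is a description and says nothing about the start site used in these samples, and Rps24 has a second annotated start without a run.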

How the data were processed

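Poly(A)-selected RNA of 4 mouse samples was sequenced in paired-end mode, per the labels' protocols. Trim Galore removed adapters, TopHat2 placed the reads on mm10 (at most 2 mismatches, mapping quality 4 or more), HTSeq counted them per gene and edgeR made the comparison, per the series' design text. The submitters' processing notes add CASAVA 1.8. How this quality filter acted on reads that match several loci was not tested.

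The deposited count columns are raw read counts per gene, and the deposited RPKM columns are the authors' values per kb and per 1e6 uniquely mapped reads. The authors' log2 fold changes and p-values were not used, since each group holds 1 library. Lengths in the files are nearly all multiples of 3 (99.8% of protein-coding genes) and are called coding lengths here.

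From the counts, log2 ratios were computed with TMM scaling (edgeR 4.0.16, R 4.3.3) and a prior count of 2, with exact conditional (Clopper-Pearson) 95% intervals from scipy 1.17.1 in Python 3.11.15. Reads are not independent molecules, so intervals and the limits from a count of 0 cover counting error only. TMM factors within the treatment comparisons lay between 0.996 and 1.004. Copies were found with BLASTN 2.17.0 of coding sequences against GENCODE M21 transcripts, since a genome sequence was not used here. The ratio and copy functions were tested on simulated data. No batch is given in the labels, and each group is 1 library, so no within-batch value could be had.

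Named were all members that are not canonical, the 10 members farthest from 0 in each treatment comparison, the 5 highest and lowest by level and by the ratio of HT22 CON over F1m-CON, 8 members set by name, Fau and Rack1, and up to 4 genes of each other list. Some genes that this rule takes are left out. The members and lists were chosen with earlier results of these data known. Alternatives were scaling by total counts or by size factors of DESeq2 1.42.0, a prior count of 0.25 or 10, a floor of 10 or 200 reads, a correction for length and GC in 10 and 5 groups, subsets by copies, 2-fold and whole-interval rules, and identity thresholds of 90% and 98%. Levels per transcript length, and the genes with under 50% of windows shared, were added after the data were seen.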

Additional observations from a re-analysis of the deposited data

Results flagged for a closer look

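The members' median log2 ratio was -0.15 in F1m-GCS over F1m-CON and 0.13 in HT22 SUP over HT22 CON, on opposite sides of 0. Rpl9 was picked out for the same reason, at -0.61 (-0.92 to -0.31) in hippocampus and 0.27 in HT22 cells, with intervals on opposite sides of 0. Each comparison rests on 1 library against 1 library, and the choline exposures differ in kind, dose and timing, so the difference between the comparisons was not tested.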

How the results depend on the processing

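No paired analysis was possible because each group holds 1 library, and for the same reason no replicate could be left out. No sign of a median turned in any alternative run. Of 182 alternative values, 144 stayed within the set tolerance and 38 moved; the cause of the moves was not tested unless the alternative itself used fewer genes. The correction for length and GC moved the hippocampus median to -0.068 with 1 member called higher, and the HT22 CON over F1m-CON median to 2.11, which total counts without TMM put at 2.46. With the 5 canonical genes without a copy, 5 were below 0 in hippocampus with 0 called lower, and in HT22 SUP 0 were below 0, 0 called in either direction, with a median of 0.20. In HT22 CON over F1m-CON these 5 had a median of 2.64 with 0 below 0. With the 11 genes with few shared windows, 11 were below 0 in hippocampus and 0 called lower, 1 below 0 in HT22 SUP with 0 called higher and 0 lower, and 0 below 0 in HT22 CON over F1m-CON. With canonical genes only, 2 were called lower in hippocampus, and 4 were below 0 in HT22 CON over F1m-CON. A 2-fold rule left 1 called lower in hippocampus and 1 higher and 0 lower in HT22 SUP. Requiring all of the interval past 1.5-fold left 1 lower in hippocampus and 1 higher in HT22 SUP, and a minimum of 200 reads left 1 higher in HT22 SUP. The shares of all measured genes called under these alternative settings are not given here, so the counts have no background beside them. The SD of log2 levels became 2.10 in F1m-GCS, 1.97 in F1m-CON, 1.62 in HT22 SUP and 1.65 in HT22 CON over the 5 genes without a copy. These 5 are without a copy by the identity rule, which can miss a shorter copy. They include Rps19, with 53% of its windows shared and a level of 17.8 in F1m-GCS, beside a median of 274 for the 5. The 11 genes with few shared windows, which leave Rps19 out, had SDs from 0.79 to 0.89. Over canonical genes with at least 50 reads the SD was 1.89, 1.86, 2.10 and 2.10 in the same order of libraries, and per transcript length 2.08, 2.02, 2.26 and 2.25. At an identity of 90% 93 members had a near-identical copy, and at 98% 77 did. Depth limits the rows under 50 reads, and reads shared among copies limit the levels of 65 canonical genes.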

Other observations

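Rps27l had 245 reads in F1m-GCS and 325 in F1m-CON (log2 -0.35, -0.60 to -0.11), and 1841 in HT22 SUP and 2363 in HT22 CON (log2 0.12, 0.04 to 0.21). Rpl36al stood at -0.02 (-0.17 to 0.13) in hippocampus and at 0.31 (0.23 to 0.40) in HT22 cells. Rps4y2 stood at 0.17 (0.03 to 0.30) in hippocampus, the only paralog with an interval above 0 there. Rpl7l1, a protein related to Rpl7, had 1156 reads in F1m-GCS and 1362 in F1m-CON (log2 -0.18, -0.30 to -0.07), and 2648 in HT22 SUP and 3413 in HT22 CON (log2 0.12, 0.04 to 0.19). The 8 measured rows with pseudogene symbols had a median of -0.31 in hippocampus, all 8 below 0, and 12 such rows had a median of 0.21 in HT22 cells, 10 of them above 0. In the Zbtb11 row named Rpl24, F1m-GCS had 1928 reads and F1m-CON 1821 (log2 0.14, 0.04 to 0.23).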
